A study of Mus musculus with 6 samples.

Results

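The transcripts described here encode 9 junction proteins of the seminiferous tubule, claudins Cldn11 and Cldn3, occludin (Ocln), the scaffold Tjp1, the connexin Gja1, N-cadherin (Cdh2), espin (Espn) and the nectins Nectin2 and Nectin3. They were chosen by gene symbol from a table of 55711 entries, and each of the 9 symbols matched 1 entry. RNA was sequenced from 3 mouse testis libraries labelled Tmc7 knockout (KO) and 3 labelled control (Ctrl), whose genotype is given as heterozygote, all of strain C57BL6. The Ctrl libraries are thus not wild type, and the labels give neither the allele, the age of the mice nor the number of animals behind a library. Tmc7 encodes a transmembrane channel-like protein, and the series title names it in connection with vesicles of the trans-Golgi network and the volume of elongated spermatids.

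Sertoli cells span the wall of the seminiferous tubule, and the tight junctions between them near its base form the blood-testis barrier. Claudins and occludin are the membrane strands of these junctions, and zonula occludens scaffolds tie them to actin. Sertoli cells also hold on to spermatid heads and to each other through the ectoplasmic specialization, a testis-specific adhesion made of espin-bundled actin, N-cadherin and nectins. Germ cells must be let through the barrier and later released, so both structures are taken apart and rebuilt in each cycle of the epithelium. All 9 transcripts were read in every library, and limma found no difference between KO and Ctrl beyond the spread between libraries.

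Values are the authors' deposited FPKM, which count fragments per kilobase of gene and are scaled between libraries, not by the summed reads alone. Between 17397662 and 19343479 reads per KO library and between 17059486 and 18629233 reads per Ctrl library could be worked back from them. Together the 9 genes took 0.107% to 0.114% of the reads in the KO libraries and 0.105% to 0.113% in the Ctrl libraries. The labels do not state separate animals for the libraries of a group, so the p-values reflect the spread between these samples alone, and that spread may be technical. Tmc7 itself was at 43.8, 41.9 and 35.1 FPKM in the KO libraries and at 39.1, 37.7 and 37.2 FPKM in Ctrl libraries, so its transcript total does not check the labels. Every marker of the Sertoli (20 genes), elongated spermatid (17), round spermatid (14) and spermatocyte (14) lists was read in at least 1 library. Of 8 epididymal genes, 2 passed the filter used for testing, and 1 was at 0 in all 6 libraries. Cst8, which passed, was high, at 149, 82.7 and 65.3 FPKM in the KO libraries and at 151, 125 and 121 FPKM in Ctrl libraries. The list as a whole was thus not absent.

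Expression of the 9 genes was compared between groups on log2(FPKM + 1) with limma, fitted over the 19168 genes that averaged 0.5 FPKM or more, a filter that all 9 passed. By limma, 0 of the 9 were called higher or lower at a Benjamini-Hochberg adjusted p under 0.05, against 0% of all genes tested. At an unadjusted p under 0.05, limma gave 0 of 9, against 3.87% of all genes. In 0 of the 9 did all values of one group lie above all values of the other, against 8.56% of all genes. By limma-voom on the reads worked back from FPKM, 0 of 9 were called, against 0.00486% of 20556 genes, and 0 of 9 had an unadjusted p under 0.05, against 3.81%. The differences of 5 genes were above 0 and those of 4 below it, where 48.6% of all genes tested were above 0. Their median was 0.02 on the log2(FPKM + 1) scale, against -0.01 over all genes tested. In testis RNA as a whole, fewer cells of a type and less RNA per cell cannot be told apart.

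**Figure D1:**
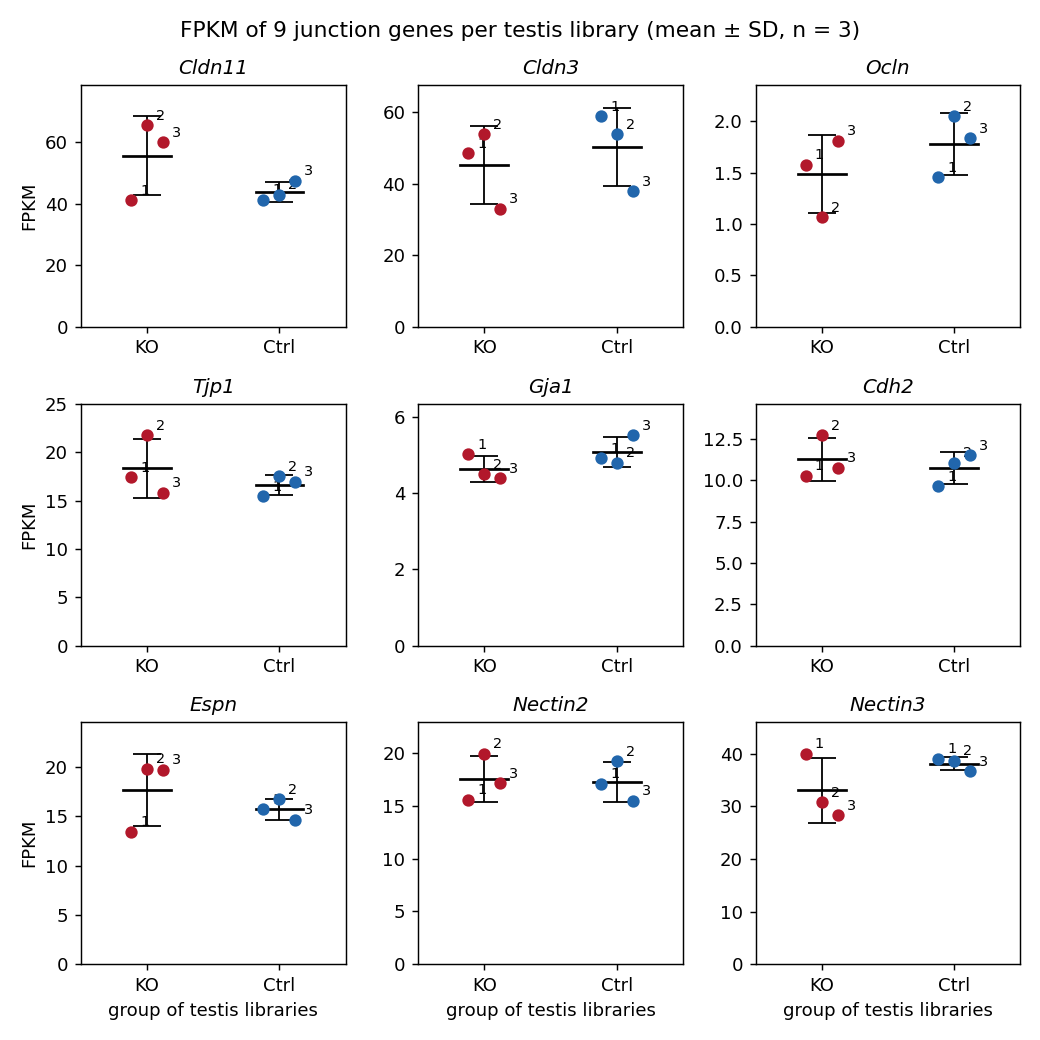
FPKM (vertical axis, from 0) of each of the 9 junction genes in testis libraries labelled Tmc7 knockout (KO, red, left) and heterozygous control (Ctrl, blue, right); numbers give the replicate, the long bar is the mean and the whiskers 1 SD over 3 libraries. The groups overlap in all 9 panels, and Cldn11 and Espn have their highest values in KO libraries 2 and 3.

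The claudins had the highest mean FPKM of the 9 transcripts. Cldn11 (ENSMUSG00000037625), a claudin of Sertoli cells without which mouse tubules lack tight junction strands, has 3 exons and lies on the plus strand of chromosome 3 from 31149920 to 31164324 in GRCm38. Cldn3 (ENSMUSG00000070473), a claudin found at newly forming junctions of the mouse barrier, has 1 exon and lies on the plus strand of chromosome 5 from 134986214 to 134987472. The bases just before RefSeq's start of transcription of these claudin genes, and of the nectin pair, are shown because each pair takes part in one structure and its members differed in pattern over the libraries. Exons are those of the longest CCDS transcript in GENCODE M21. The windows are RefSeq's for GRCm38.p6, 250 bases each, and capitals mark matches on either strand to the CCAAT box (CCAAT), the GC box (GGGCGG) or the E-box bound by Snail repressors (CAGGTG). They lie at chr3:31149670-31149919 (plus strand) for Cldn11, chr5:134985964-134986213 (plus strand) for Cldn3, chr7:19749574-19749823 (minus strand) for Nectin2 and chr16:46496968-46497217 (minus strand) for Nectin3. The RefSeq starts of the nectins lie inside the gene bounds of the deposited table, and each nectin window is intronic in 1 non-coding transcript of GENCODE M21 and overlaps 0 exons.
Cldn11: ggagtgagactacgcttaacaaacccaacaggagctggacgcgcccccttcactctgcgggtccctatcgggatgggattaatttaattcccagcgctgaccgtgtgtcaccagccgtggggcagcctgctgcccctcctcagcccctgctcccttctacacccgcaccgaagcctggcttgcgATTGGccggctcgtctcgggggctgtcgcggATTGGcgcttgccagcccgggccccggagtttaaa
Cldn3: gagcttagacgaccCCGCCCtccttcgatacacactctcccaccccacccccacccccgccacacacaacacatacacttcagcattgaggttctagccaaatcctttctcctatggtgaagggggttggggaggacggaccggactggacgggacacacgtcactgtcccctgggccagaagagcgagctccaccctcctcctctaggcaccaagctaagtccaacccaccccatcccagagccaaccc
Nectin2: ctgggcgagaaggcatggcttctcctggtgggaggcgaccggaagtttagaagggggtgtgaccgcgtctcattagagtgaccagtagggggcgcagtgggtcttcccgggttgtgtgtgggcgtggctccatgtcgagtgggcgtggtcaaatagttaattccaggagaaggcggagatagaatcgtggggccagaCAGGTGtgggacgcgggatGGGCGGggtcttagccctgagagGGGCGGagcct
Nectin3: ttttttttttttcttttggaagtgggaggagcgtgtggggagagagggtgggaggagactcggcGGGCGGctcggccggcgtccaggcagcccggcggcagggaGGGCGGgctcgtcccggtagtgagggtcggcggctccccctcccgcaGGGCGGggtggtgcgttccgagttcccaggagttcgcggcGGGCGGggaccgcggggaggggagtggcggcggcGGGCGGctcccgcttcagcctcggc

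RefSeq windows were matched for 8 of the 9 genes, 11 windows in all, since Espn has 3 and Ocln 2. The 2 Ocln windows overlap each other, and that starting at 100552499 overlaps 2 annotated exons. The Espn windows starting at 152128926 and 152136326 overlap 19 and 5 Espn transcripts, and the Tjp1 window overlaps 1 protein-coding transcript. A GC box stood in the windows of 6 of the 8 genes (Cldn3, Espn, Nectin2, Nectin3, Ocln and Tjp1) and in 8 of the 11 windows, against 32.7% of all 32851 windows of that length. Nectin3 had 5 matches, at 186, 146, 99, 59 and 25 bases before the start, in a window with 73.2% G and C, against a median of 52.4% over all windows. All windows of these genes but that of Gja1 (50%) were above that median, at 59.2% to 73.2%. The GC box is itself made of G and C, and its share was not compared at equal G and C. Cldn11 had no GC box match but a pair of CCAAT boxes at 66 and 35 bases before the start. The CCAAT box was found in 3 of the 8 genes (Cldn11, Espn and Ocln) and in 33.8% of all windows. The Snail E-box was found in Nectin2 and Ocln, against 17.2% of all windows. The TATA box (TATAAA), the half-site of androgen and other steroid receptors (AGAACA) and the SOX core (AACAAT) were found in 0 of the 11 windows, against 12.4%, 16.1% and 9.42% of all windows. The matches describe letters only, and no binding was measured. No match of these motifs overlapped another in the 4 windows shown.

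Cldn11 was at 41.1, 65.5 and 60.01 FPKM in the KO libraries and at 41.3, 42.9 and 47.4 FPKM in Ctrl libraries. KO libraries 2 and 3 were above every Ctrl library, whereas library 1 was the lowest of all 6. The means were 55.5 ± 12.8 FPKM in KO and 43.9 ± 3.19 FPKM in Ctrl (SD, n = 3 each). The difference was 0.31 on the log2(FPKM + 1) scale (standard error 0.17, 95% interval -0.10 to 0.72, limma adjusted p = 0.868). It was the largest difference among the 9 genes, and without KO library 1 it was 0.51 (limma adjusted p = 0.147). In that setting limma called 0 of 19211 genes. The limma adjusted p was also lower there for Espn (0.179) and Nectin3 (0.158), so the drop was not particular to Cldn11. Leaving out KO library 2 instead gave 0.18, and leaving out KO library 3 gave 0.24.

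Cldn3 was at 48.5, 53.9 and 32.96 FPKM in the KO libraries and at 58.8, 53.7 and 37.9 FPKM in Ctrl libraries. Here the third library of each group was the low one, and the groups overlapped. The means were 45.1 ± 10.9 FPKM in the KO libraries and 50.1 ± 10.9 FPKM in Ctrl libraries (SD, n = 3 each). The difference was -0.15 on the log2(FPKM + 1) scale (standard error 0.22, 95% interval -0.68 to 0.37, limma adjusted p = 0.891). The direction rested on KO library 3, without which the difference was 0.05.

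An antisense gene runs next to Cldn3. Wbscr25 (chromosome 5 from 134987433 to 135001350) is read from the minus strand, and 40 of the 1259 exonic bases of Cldn3 are also exonic in it. Wbscr25 was at 128.5, 116 and 62.3 FPKM in the KO libraries and at 142, 124 and 81.5 FPKM in Ctrl libraries. As with Cldn3, Ctrl library 1 was the highest of the 6 and the third library of each group the lowest of its group. Cldn3 was 0.378, 0.465 and 0.529 times Wbscr25 in the KO libraries and 0.413, 0.433 and 0.465 times in Ctrl libraries. As annotated, the shared bases are 3.18% of the exonic bases of Cldn3. Whether the counting used strand is not stated in the labels or the table. Reads over the shared bases, or of an antisense transcript running further over Cldn3, thus cannot be told apart from its own. The value of Cldn3 is uncertain to that extent. Wbscr25 was looked up because it overlaps Cldn3, after the values of Cldn3 were seen.

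The balance of the claudins shifted from library to library. Within a library Cldn11 was 0.846, 1.22 and 1.82 times Cldn3 in the KO libraries and 0.703, 0.798 and 1.25 times Cldn3 in Ctrl libraries. KO library 3 had the highest ratio and Ctrl library 1 the lowest, and KO library 1 lay among the Ctrl libraries. The difference in log2 ratio was 0.47 (exact two-sided permutation p = 0.3, adjusted p = 0.4 over the 2 ratios tested), where 0.1 is the smallest p that 3 against 3 libraries can give.

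Occludin had the lowest mean FPKM of the 9 transcripts. Ocln (ENSMUSG00000021638, chromosome 13 from 100496507 to 100552718, minus strand, 9 exons) encodes a membrane protein of the tight junction strands. It was at 1.58, 1.07 and 1.81 FPKM in the KO libraries and at 1.45, 2.05 and 1.84 FPKM in Ctrl libraries. KO library 2 was the lowest of the 6 and Ctrl library 2 the highest, and the other 4 lay between them. These values rested on 126, 78 and 149 reads in the KO libraries and on 101, 160 and 149 reads in Ctrl libraries. The exact Poisson 95% interval, which covers counting error only, was 0.842 to 1.33 FPKM in KO library 2 and 1.74 to 2.39 FPKM in Ctrl library 2. The difference was -0.17 on the log2(FPKM + 1) scale (standard error 0.16, 95% interval -0.53 to 0.20, limma adjusted p = 0.868). On this scale the change of a gene at so low a level is understated, and limma-voom gave -0.28 with a standard error of 0.23 (adjusted p = 0.858). Without KO library 2 the limma difference was -0.04.

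Tjp1 (ENSMUSG00000030516, chromosome 7 from 65296165 to 65527781, minus strand, 28 exons) encodes the zonula occludens scaffold that binds claudins and occludin to actin. It was at 17.4, 21.8 and 15.8 FPKM in the KO libraries and at 15.4, 17.5 and 16.95 FPKM in Ctrl libraries. KO library 2 stood above all others, and the other two lay within the range of the Ctrl libraries. The difference was 0.12 on the log2(FPKM + 1) scale with a standard error of 0.13 (95% interval -0.18 to 0.43, limma adjusted p = 0.868). Without KO library 2 it was 0.0013.

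Gja1 (ENSMUSG00000050953, chromosome 10 from 56377330 to 56402513, plus strand, 2 exons) encodes the main connexin of gap junctions between Sertoli cells and from Sertoli to germ cells. It was at 5.02, 4.50 and 4.39 FPKM in the KO libraries and at 4.93, 4.80 and 5.53 FPKM in Ctrl libraries. KO libraries 2 and 3 were below every Ctrl library, and library 1 lay among them. The difference was -0.11 on the log2(FPKM + 1) scale with a standard error of 0.10 (95% interval -0.35 to 0.13, limma adjusted p = 0.868), and without Ctrl library 3 it was -0.059. Gja1 varied least of the 9 genes, with a coefficient of variation of 8.38% over the 6 libraries, of which counting alone would give 3.33%.

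Cdh2 (ENSMUSG00000024304, chromosome 18 from 16588877 to 16809246, minus strand, 16 exons) encodes N-cadherin, the classical cadherin of Sertoli and germ cell adhesion. It was at 10.3, 12.7 and 10.8 FPKM in the KO libraries and at 9.64, 11.1 and 11.5 FPKM in Ctrl libraries. KO library 2 was the highest and Ctrl library 1 the lowest, with the rest of both groups mixed between. The difference was 0.06 on the log2(FPKM + 1) scale with a standard error of 0.11 (95% interval -0.21 to 0.33, limma adjusted p = 0.915). Its sign turned without KO library 2 (-0.02) and without Ctrl library 1 (-0.01).

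Espn (ENSMUSG00000028943, chromosome 4 from 152120331 to 152152371, minus strand, 16 exons) encodes espin, which bundles the actin filaments of the ectoplasmic specialization. It was at 13.4, 19.8 and 19.7 FPKM in the KO libraries and at 15.7, 16.7 and 14.6 FPKM in Ctrl libraries. As with Cldn11, KO libraries 2 and 3 were above every Ctrl library and library 1 below every Ctrl library. The means were 17.7 ± 3.67 FPKM in the KO libraries and 15.7 ± 1.05 FPKM in Ctrl libraries (SD, n = 3 each). The difference was 0.14 on the log2(FPKM + 1) scale with a standard error of 0.16 (95% interval -0.23 to 0.51, limma adjusted p = 0.872). Without KO library 1 it was 0.32 (limma adjusted p = 0.179), without KO library 2 it was 0.052 and without KO library 3 it was 0.055.

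Nectins join Sertoli cells to spermatids by binding across the gap, with Nectin2 known from the Sertoli side and Nectin3 from the spermatid side in mouse testis. Nectin2 (ENSMUSG00000062300, chromosome 7 from 19716644 to 19750483, minus strand, 9 exons) was at 15.6, 19.9 and 17.1 FPKM in the KO libraries and at 17.1, 19.2 and 15.5 FPKM in Ctrl libraries. The groups covered nearly the same range. Its difference of 0.02 on the log2(FPKM + 1) scale was the smallest of the 9 (standard error 0.12, 95% interval -0.27 to 0.31, limma adjusted p = 0.978). The antisense gene Gm20512 shares 135 exonic bases with Nectin2, 3.86% of them, and was at 0.280 to 1.74 FPKM in the KO libraries and 0.689 to 0.842 FPKM in Ctrl libraries.

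Nectin3 (ENSMUSG00000022656, chromosome 16 from 46387706 to 46498525, minus strand, 9 exons) was at 39.99, 30.9 and 28.4 FPKM in the KO libraries and at 39.0, 38.7 and 36.7 FPKM in Ctrl libraries. KO libraries 2 and 3 were below every Ctrl library, and library 1 was the highest of the 6. The means were 33.1 ± 6.13 FPKM in the KO libraries and 38.1 ± 1.30 FPKM in Ctrl libraries (SD, n = 3 each). The difference was -0.21 on the log2(FPKM + 1) scale (standard error 0.13, 95% interval -0.53 to 0.10, limma adjusted p = 0.868). Without KO library 1 it was -0.36 (limma adjusted p = 0.158), and without library 3 it was -0.11.

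Within a library Nectin2 was 0.390, 0.645 and 0.605 times Nectin3 in the KO libraries and 0.438, 0.496 and 0.422 times Nectin3 in Ctrl libraries. KO library 1 had the lowest ratio of the 6 and libraries 2 and 3 the highest. The difference in log2 ratio was 0.24 (exact two-sided permutation p = 0.4, adjusted p = 0.4 over the 2 ratios, smallest possible p = 0.1). Both ratios were chosen after the values were seen.

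**Figure D2:**
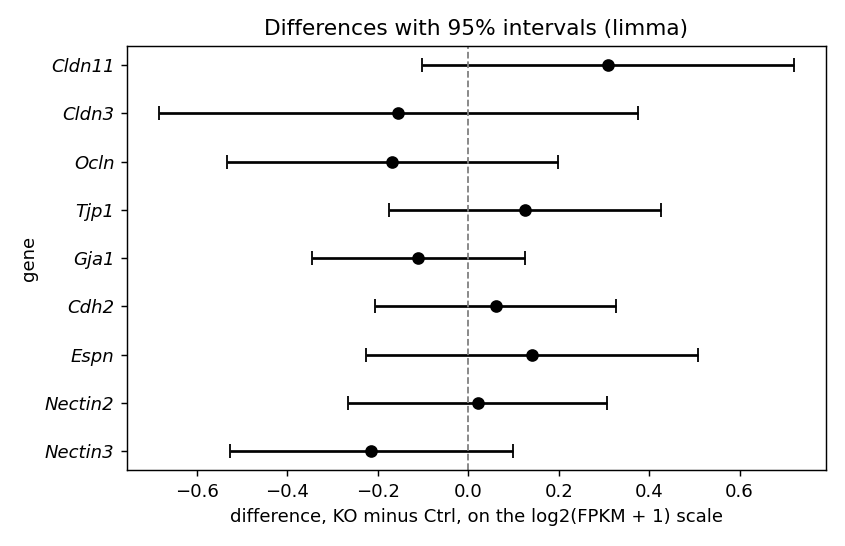
Difference between KO and Ctrl libraries on the log2(FPKM + 1) scale (horizontal axis) for each gene, with points for the limma estimate and bars for its 95% interval (n = 3 each). All 9 intervals include 0, and the widest on this scale is that of Cldn3, from -0.68 to 0.37. The interval of Ocln, a gene at a low level, comes out too narrow on this scale.

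The intervals give what size of change these 6 libraries can still hold. The upper limit was highest for Cldn11, at 0.72 on the log2(FPKM + 1) scale, and the lower limit was lowest for Cldn3, at -0.68. On this scale the interval of Ocln comes out too narrow, since its level is low. By limma-voom the difference was -0.28 with a standard error of 0.23 for Ocln and -0.16 with 0.20 for Cldn3. Ocln is thus not bounded more tightly than Cldn3. For Nectin2, Cdh2 and Gja1 both limits lay between -0.35 and 0.33. The spread between libraries was wider than the counting error of the reads. Cldn11 had a coefficient of variation of 21.1% over the 6 libraries and a counting error of 2.47%, and Nectin3 had 13.6% and 1.11%. The counting error was largest for Ocln, at 9.16% beside a coefficient of variation of 21.2%.

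FPKM is per length, so the levels of the 9 genes can be set side by side, but only roughly. The length used for Cldn3 (1259 bases) and Nectin2 (3494) is that of all annotated exons, not of the transcript expressed. Lengths ran from 1259 bases for Cldn3, with 1 protein-coding transcript, to 12747 for Nectin3, with 8. A gene with annotated exons that are not expressed reads too low, so the order below holds for these lengths only. Over all 6 libraries Cldn11 averaged 49.7, Cldn3 47.6, Nectin3 35.6, Tjp1 17.5, Nectin2 17.4, Espn 16.7, Cdh2 11.002, Gja1 4.86 and Ocln 1.63 FPKM. Cldn11 and Cldn3 overlapped in range, with Cldn11 the higher in KO libraries 2 and 3 and in Ctrl library 3. Cldn3 was above Nectin3 in 6 of 6 libraries, although their ranges over libraries overlapped. Tjp1, Nectin2 and Espn formed an overlapping middle group, between 13.4 and 21.8 FPKM. Steps with no overlap separated Nectin3 from Tjp1, Espn from Cdh2, Cdh2 from Gja1 and Gja1 from Ocln.

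Of the 6 genes set against their families, Cldn11, Nectin3 and Tjp1 ranked first by mean FPKM and Cldn3, Nectin2 and Gja1 second. Ranks and shares carry the same limit of gene length. Cldn11 and Cldn3 held 33.4% and 32.1% of the summed mean FPKM of 33 protein-coding claudin genes. Nectin3 and Nectin2 held 62.4% and 30.5% of that of 4 nectins, and Tjp1 66.6% of that of 3 zonula occludens genes. Gja1 held 22.2% of that of 20 connexins, behind Gjd3 with 24.2%. The order of Gja1 and Gjd3 is unsure, since their ranges overlapped (4.39 to 5.53 and 3.85 to 7.41 FPKM). Gjd3 rested on 58 to 109 reads per library and Gja1 on 800 to 1089.

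**Figure D3:**
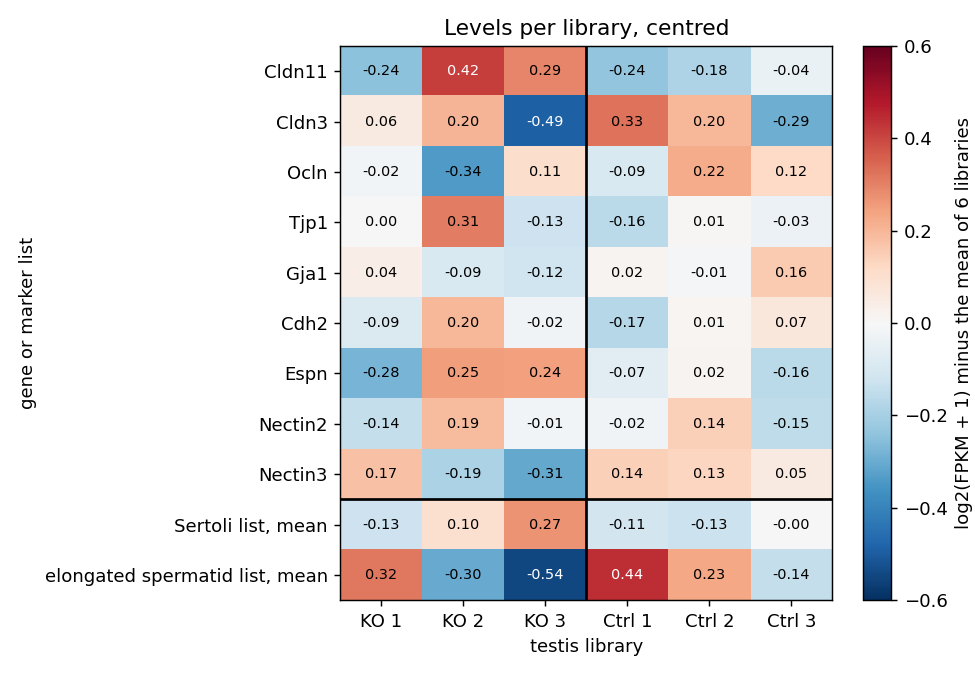
Level of each gene in each library on the log2(FPKM + 1) scale, minus its mean over the 6 libraries (colour and printed number), with KO libraries left and Ctrl libraries right; the lower 2 rows give the mean of tested Sertoli and elongated spermatid marker genes. Cldn11 and Espn are high and Nectin3 is low in KO libraries 2 and 3, in which the elongated spermatid list is at -0.30 and -0.54.

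The 9 genes did not move as a block. KO library 2 had the highest value of 5 of the 9 genes (Cldn11, Tjp1, Cdh2, Espn and Nectin2) and the lowest value of Ocln. The lowest values of Cldn3, Gja1 and Nectin3 were those of KO library 3, which had the highest of none. In KO library 1, by contrast, Cldn11 and Espn had their lowest values and Nectin3 its highest. The SD was larger in the KO libraries than in the Ctrl libraries for 7 of the 9 genes, all but Cldn3 and Gja1, and more than 2 times as large for 4 of them. The SD of Cldn11 was 12.8 FPKM in the KO libraries and 3.19 FPKM in Ctrl libraries, that of Nectin3 was 6.13 FPKM in KO and 1.30 FPKM in Ctrl, that of Espn 3.67 FPKM in KO and 1.05 FPKM in Ctrl, and that of Tjp1 3.07 FPKM in KO and 1.07 FPKM in Ctrl. The difference in spread was not tested. Its share over all genes was not counted either, so a larger spread in KO is not shown to be particular to the 9. Outside them, Plec had an SD of 10.98 FPKM in KO and 0.796 FPKM in Ctrl, and Tmc7 had 4.57 FPKM in KO and 0.981 FPKM in Ctrl. Pard6a went the other way, with 0.941 FPKM in KO and 2.31 FPKM in Ctrl.

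Marker genes of Sertoli cells and spermatids also differed from library to library. The 20 Sertoli genes summed to 755, 863 and 974 FPKM in the KO libraries and to 804, 760 and 812 FPKM in Ctrl libraries. Of the 19 tested, 15 had a difference above 0 and 0 passed limma (median 0.20, smallest adjusted p = 0.868). The 17 elongated spermatid genes summed to 19598, 11869 and 10536 FPKM in the KO libraries and to 22818, 18736 and 13632 FPKM in Ctrl libraries. Of the 17 tested, 17 had a difference below 0 and 0 passed limma (median -0.39, smallest adjusted p = 0.868). Over all genes tested, 48.6% had a difference above 0. The elongated spermatid sum fell from library 1 to library 3 in both groups. Signs of genes that vary together over the libraries are not separate results. None of the markers on these lists was at 0 in all libraries. Their part in the values of Cldn11, Espn, Cldn3 and Nectin3 was not tested.

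Genes whose profile over the 6 libraries lay nearest to the mean profile of the 9 were sought among the 5364 other genes that averaged 10 FPKM or more. The nearest were Clk3, Ubap2l, Rgl1, Cfap70 and Wars, with root mean square differences of 0.0256, 0.0266, 0.0268, 0.0272 and 0.0283 on the log2(FPKM + 1) scale. The median over the 5364 genes was 0.151. The 9 genes themselves lay between 0.0792 (Nectin2) and 0.268 (Cldn3) from their own mean profile, with a median of 0.172. Nectin2, Cdh2, Tjp1 and Gja1 lay nearer to it than that median over other genes, and Espn, Nectin3, Ocln, Cldn11 and Cldn3 lay farther from it. The comparison is not like for like, since each of the 9 is part of that mean profile. Gja1 and Ocln also lie below the 10 FPKM asked of the other genes. The mean profile was nearly flat, from -0.055 in KO library 1 to 0.105 in KO library 2. Nearness to it thus largely reflects a small spread.

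**Figure D4:**
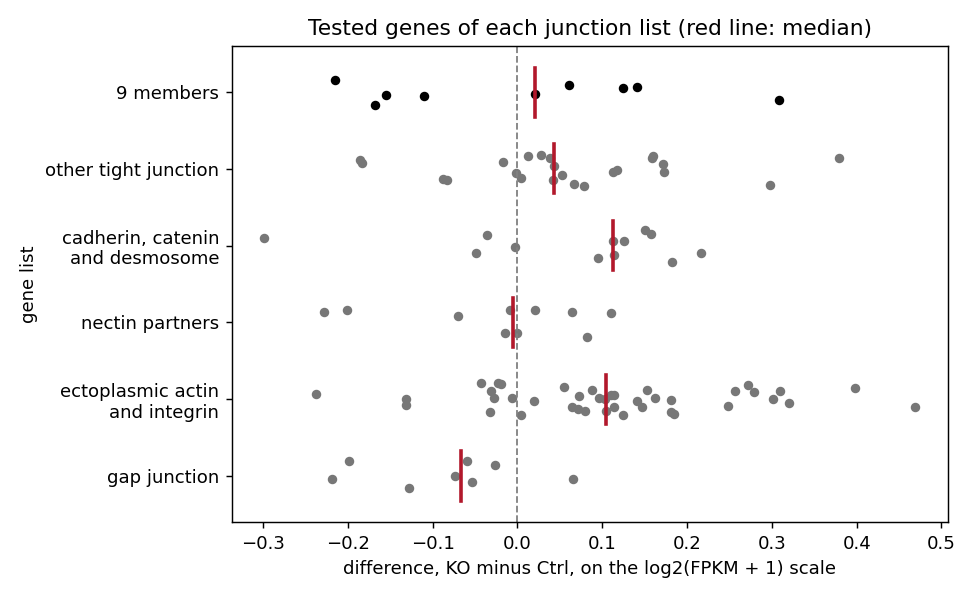
Difference between KO and Ctrl libraries on the log2(FPKM + 1) scale (horizontal axis) of each tested gene of 6 lists, the 9 genes at the top and 5 lists of other junction genes below; red lines are medians. The medians lie between -0.07 (gap junction) and 0.11 (cadherin, catenin and desmosome).

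Other genes of the same junctions were read from 5 lists, of which 94 of 123 genes passed the filter. Of these 94, 61 had differences above 0 and 33 below, where 48.6% of all genes tested were above 0. Limma called 0 of the 94, and 2 had an unadjusted p under 0.05, against 3.87% of all genes. Limma-voom also called 0, and 5 of the listed genes it tested had an unadjusted p under 0.05, against 3.81% of all genes. In 11 of the 94 the groups did not overlap, against 8.56% of all genes.

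Of the other tight junction genes, 23 of 34 were tested, 17 with differences above 0 and 6 below, with a median of 0.04. The highest were Pard6a, a polarity protein, at 23.9 ± 0.941 FPKM in the KO libraries and 22.8 ± 2.31 FPKM in Ctrl libraries, Mpp5, a scaffold of the Crumbs polarity complex, at 10.8 ± 1.501 FPKM in KO and 12.4 ± 0.370 FPKM in Ctrl, and Cgn, which encodes cingulin, at 11.1 ± 2.52 FPKM in KO and 9.67 ± 1.19 FPKM in Ctrl (SD, n = 3 each). The smallest p values belonged to Pard6b and Jam3. Pard6b was at 3.73, 6.12 and 5.49 FPKM in the KO libraries and at 3.13, 3.48 and 4.38 FPKM in Ctrl libraries (log2 difference 0.38, limma adjusted p = 0.868). Jam3, a junctional adhesion molecule that mouse spermatids need to polarise, was at 5.98, 5.32 and 5.75 FPKM in the KO libraries and at 6.93, 6.21 and 6.62 FPKM in Ctrl libraries. All 3 values of Jam3 were below those of the Ctrl libraries, by 0.18 on the log2(FPKM + 1) scale (limma adjusted p = 0.868).

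Among cadherins, catenins and desmosomal genes 12 of 16 were tested, 8 with differences above 0 and 4 below, with a median of 0.11. Ctnnb1, which encodes beta-catenin, the partner of N-cadherin, was at 29.5 ± 4.203 FPKM in KO and 26.2 ± 0.970 FPKM in Ctrl. Ctnna1, which links cadherins to actin, was at 16.3 ± 3.82 FPKM in KO and 14.04 ± 1.03 FPKM in Ctrl. Ctnna3, a relative of it, was at 10.8, 7.76 and 6.01 FPKM in the KO libraries and at 10.2, 10.6 and 9.36 FPKM in Ctrl libraries, with KO libraries 2 and 3 lowest, as for Nectin3 (log2 difference -0.30, limma adjusted p = 0.868). Cdh5, a cadherin of endothelial cells, was at 2.82 ± 0.618 FPKM in KO and 2.28 ± 0.421 FPKM in Ctrl. Of 10 tested markers of endothelial cells, 9 had a difference above 0 and 0 passed limma (median 0.06), and their part in the value of Cdh5 was not tested. The desmosomal cadherins Dsg2 and Dsc2 were below the filter, at 0.0432 and 0.0763 FPKM over the 6 libraries.

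Of the nectin partners 10 of 11 were tested, 4 with differences above 0 and 6 below, with a median of -0.0047. Ssx2ip, which binds afadin, was at 99.8, 89.1 and 67.8 FPKM in the KO libraries and at 104, 100.2 and 88.1 FPKM in Ctrl libraries (log2 difference -0.20, limma adjusted p = 0.868). Its groups overlapped, with KO library 3 lowest. Cadm1, an adhesion molecule of germ cells, was at 10.97 ± 0.263 FPKM in KO and 11.1 ± 0.799 FPKM in Ctrl. Afdn, which encodes afadin, the actin link of nectins, was at 8.05 ± 0.991 FPKM in KO and 7.37 ± 0.691 FPKM in Ctrl. Cadm2 lay just above the filter, at 0.398 ± 0.0490 FPKM in KO and 0.640 ± 0.128 FPKM in Ctrl. Its groups did not overlap, with all KO libraries lower (log2 difference -0.23, limma adjusted p = 0.868), and limma-voom, which does not add 1 to FPKM, gave -0.68 (adjusted p = 0.858).

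The actin and integrin list of the ectoplasmic specialization had 41 of 45 genes tested, 31 with differences above 0 and 10 below, with a median of 0.10. In 5 of the 41 the KO libraries were all higher than the Ctrl libraries and in 1 all lower, against 4.15% and 4.41% of all genes tested. Plec, which encodes the cytolinker plectin, was at 70.1 ± 10.98 FPKM in KO and 64.2 ± 0.796 FPKM in Ctrl. Cfl1, the actin-severing cofilin, was at 68.9 ± 4.16 FPKM in KO and 63.1 ± 2.79 FPKM in Ctrl, and Arpc1a, of the actin-branching complex, at 57.9 ± 2.22 FPKM in KO and 53.4 ± 1.04 FPKM in Ctrl, the groups of Arpc1a not overlapping. Myo7a, an unconventional myosin also known from hair cells, was at 20.7, 30.98 and 22.5 FPKM in the KO libraries and at 19.1, 15.9 and 17.2 FPKM in Ctrl libraries. Its groups did not overlap, and it differed by 0.47 ± 0.16 (standard error) on the log2 scale (unadjusted p = 0.0199, limma adjusted p = 0.868). Dbnl, an actin-binding adaptor, was at 13.95, 14.7 and 16.3 FPKM in the KO libraries and at 13.3, 11.6 and 11.8 FPKM in Ctrl libraries, again without overlap (log2 difference 0.27, unadjusted p = 0.0267, limma adjusted p = 0.868).

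Of the gap junction genes 8 of 17 were tested, 1 with a difference above 0 and 7 below, with a median of -0.07. Gjd3 was at 4.84 ± 1.59 FPKM in KO and 5.74 ± 1.45 FPKM in Ctrl and Gjc1 at 3.003 ± 0.217 FPKM in KO and 3.17 ± 0.195 FPKM in Ctrl. Gja6, a connexin of rodent testis, was at 3.17, 3.40 and 3.48 FPKM in the KO libraries and at 3.53, 3.64 and 4.93 FPKM in Ctrl libraries. All 3 values of Gja6 were below those of the Ctrl libraries (log2 difference -0.20, limma adjusted p = 0.868).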

How the data were processed

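The 6 testis libraries (3 KO, 3 Ctrl) were grouped by title. Per the labels, RNA was taken up in Trizol and libraries made with a SMARTER kit. GRCm38 and mm10 are the builds in the submitters' processing notes. Aligner, counter, annotation release and use of strand are not given in the sources consulted. The authors deposited FPKM per gene. FPKM times gene length gave whole reads for 100% of values above 0 (tolerance 0.001 reads).

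The test was limma 3.58.1 (R 4.3.3) on log2(FPKM + 1), for genes averaging 0.5 FPKM or more, with a mean-variance trend, group as only term and Benjamini-Hochberg adjustment over all genes. It was tested on simulated data with planted changes far larger than the differences of the 9 genes, which says nothing about changes of their size. Changes of low genes come out too small on this scale. The members and the gene lists were chosen with earlier results of these data known. Named genes were the 9, Tmc7, of each junction list the 3 highest in FPKM and the 2 of smallest p, and the 5 nearest profiles. Wbscr25, Gm20512, Cst8, Dsg2, Dsc2 and genes given only in the closing section were picked with values in view. Of the 31-base words in the GENCODE M21 transcripts of the 9 genes, 0% to 3.15% occur in other genes. Alternatives were another pseudocount, 2 other filters, 2 normalizations, a replicate block, no trend, limma-voom and each library left out. Of the normalizations, median-of-ratios rescaling left the deposited values almost as they were (Cldn11 difference 0.3085 with and without it). It was therefore hardly a separate check.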

Additional observations from a re-analysis of the deposited data

How the results depend on the processing

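Limma called 0 of the 9 genes under all 14 alternatives, with adjusted p from 0.147 to 0.9999, and limma also called 0 of all genes under 13 of them. The exception was limma-voom on recovered reads, which called 1 gene of 20556, none of the 9. Of 125 values of the 9 genes under the alternatives, 5 changed sign, all with 1 library left out. These were Cdh2 without KO library 2 (-0.024) and without Ctrl library 1 (-0.0090), Nectin2 without KO library 2 (-0.069) and without Ctrl library 3 (-0.050), and Cldn3 without KO library 3 (0.052). Over the left-out libraries the differences ranged from 0.18 to 0.51 for Cldn11, from -0.34 to 0.052 for Cldn3, from -0.024 to 0.12 for Cdh2, from -0.069 to 0.098 for Nectin2, from -0.36 to -0.11 for Nectin3, from 0.05 to 0.32 for Espn, from 0.0013 to 0.22 for Tjp1, from -0.26 to -0.04 for Ocln (the highest without KO library 2) and from -0.16 to -0.059 for Gja1 (the highest without Ctrl library 3); the cause was not tested. The median over the 9 genes lay between -0.05 and 0.10. Ocln did not pass the filter at a mean of at least 2 FPKM and has no value there. Replicate numbers were not stated to pair samples. Deviations from the group means of same-numbered libraries had correlations of 0.286, 0.0413 and 0.198. Libraries of unlike number were not compared in this way, so these values cannot decide whether the numbers pair samples. With a replicate block, 0 genes and 0 of the 9 were called.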

Other observations

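Outside the 9 genes, the claudin family held 13 further genes above the filter, at far lower levels. The highest were Cldn34c4 at a mean of 8.21 FPKM over the 6 libraries, Cldn5, a claudin of endothelial cells, at 7.99 FPKM and Cldn34b4 at 6.80 FPKM. Ilk, whose protein integrin adhesions need in most cells, was listed at a mean of 0.0548 FPKM and was not tested. Whether that low value comes from the counting was not tested either. Haemoglobin Hba-a1 was at 0.977, 0.213 and 29.4 FPKM in the KO libraries and at 5.09, 0.399 and 27.3 FPKM in Ctrl libraries, so that the third library of each group stood apart in it.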
